A study of Saccharomyces cerevisiae with 23 samples.

Results

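Splicing and RNA levels of 7 yeast genes of the mitochondrial respiratory chain were examined in growing and starved cultures. The 7 genes were taken by gene identity, as subunits, assembly factors and regulators of the chain among the 284 introns in the tables. They were QCR9 (YGR183C) and QCR10 (YHR001W-A) of complex III, COX4 (YGL187C) and COX5B (YIL111W) of complex IV, and RCF3 (YBR255C-A), COI1 (YDR381C-A) and MRA1 (YPR010C-A), whose products associate with these complexes or act on their assembly. Each was listed with 1 intron in all 23 libraries, and all 7 were among the 265 introns that had a mean of at least 20 counts and were tested. The strains were Saccharomyces cerevisiae of BY background. They were wild type in 2 sets called WTa and WTb, a mud1 mutant (mud1D) and a nam8 deletion (nam8D), each in log phase and after 48 h, grown on 2% glucose in minimal medium. The U1 small nuclear ribonucleoprotein, which recognises the 5' splice site at the start of splicing, contains the products of MUD1 and NAM8. Each of the 8 groups had 3 libraries, except log-phase WTa, for which replicates 2 and 3 were analysed here. Wild type therefore counted 5 log-phase libraries and 6 from 48 h. The labels do not say whether replicates were separate cultures, so p-values cover only the variation among libraries within a group, and that variation may be technical. WTa and WTb were fitted as separate groups, and wild type is their mean. The difference between the 2 sets is therefore not part of the p-values or standard errors.

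The respiratory chain passes electrons from metabolic substrates to oxygen across the inner mitochondrial membrane. In yeast, complex III (cytochrome bc1 complex) takes electrons from ubiquinol and hands them to cytochrome c, and complex IV (cytochrome c oxidase) passes them on to oxygen. The complexes join into supercomplexes with the help of further proteins. While glucose is plentiful yeast ferments and represses most of these genes, and when glucose runs out it turns to respiration of the ethanol it made. Complex III and complex IV need subunits from both the nuclear and the mitochondrial genome, and the 7 genes here are nuclear.

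In multiplexed primer extension sequencing, cDNA is made from primers set close to chosen introns, so a read tells whether the RNA was spliced (mature) or still held the intron (premature). The libraries held between 3343811 and 12068685 counts. Ribosomal protein genes took 89.2% to 90.7% of a library's counts in log phase and 64.4% to 77.0% at 48 h. The 7 genes together took 0.285% to 0.399% in log phase and 4.23% to 8.63% at 48 h, with no overlap. Premature counts over all targets were 1.60% to 2.35% in log phase and 3.54% to 9.39% at 48 h. MUD1 itself, which has an intron, had 1328 to 5543 mature counts per library outside mud1D. Of the mud1D libraries, only replicate 1 in log phase listed it, at 1 mature count and 0 premature. NAM8 was not among the listed introns, so its loss was not checked here.

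The introns are shown first because their splice sites differ from one another. An annotated intron within the coding sequence was found for 6 of the 7 genes in build R64 (RefSeq). The 6 are printed 5' to 3' on the gene's strand, with the first 6 bases (5' splice site), the last 3 bases (3' splice site) and the 7-base match to NNCTAAC named below in capitals.
QCR9: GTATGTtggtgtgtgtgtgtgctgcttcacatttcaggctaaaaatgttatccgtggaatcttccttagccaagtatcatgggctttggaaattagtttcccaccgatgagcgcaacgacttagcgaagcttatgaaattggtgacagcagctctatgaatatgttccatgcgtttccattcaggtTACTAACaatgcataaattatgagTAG
QCR10: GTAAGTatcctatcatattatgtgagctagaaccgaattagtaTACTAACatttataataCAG
COX5B: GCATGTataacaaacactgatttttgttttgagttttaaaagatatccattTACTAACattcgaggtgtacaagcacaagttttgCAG
RCF3: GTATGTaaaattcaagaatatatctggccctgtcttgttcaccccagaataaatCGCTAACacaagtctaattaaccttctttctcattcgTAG
COI1: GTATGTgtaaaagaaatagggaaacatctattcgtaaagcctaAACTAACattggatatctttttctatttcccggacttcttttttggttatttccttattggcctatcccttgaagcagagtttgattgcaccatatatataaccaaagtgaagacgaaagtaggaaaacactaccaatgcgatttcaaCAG
MRA1: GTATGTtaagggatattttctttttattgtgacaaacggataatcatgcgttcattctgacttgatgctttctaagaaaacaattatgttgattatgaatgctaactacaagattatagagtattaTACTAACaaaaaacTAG

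The QCR9 intron (chrVII:859261-859473, minus strand, 213 bases) follows the start codon directly, after 3 coding bases. The QCR10 intron (chrVIII:107832-107894, plus strand) is 63 bases long and follows 6 coding bases. That of COX5B (chrIX:155223-155310, plus strand, 88 bases) splits the start codon after 1 base. The other introns lie at chrII:726918-727011 on the minus strand for RCF3 (94 bases, after 63 coding bases), chrIV:1238631-1238824 on the minus strand for COI1 (194 bases, after 26) and chrXVI:582559-582701 on the minus strand for MRA1 (143 bases, after 33). Among the 241 tested introns with an annotated match, the median length was 147 bases, and outside ribosomal protein genes it was 96. The COX4 intron was named only by its gene, since R64 annotates none within the coding sequence, and its position was not used here.

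QCR9, RCF3, COI1 and MRA1 start with GTATGT, the usual yeast 5' splice site, as did 190 of the 241 matched introns (78.8%). The QCR10 intron starts with GTAAGT, shared by 11 introns (4.56%). COX5B starts with GCATGT, and was the only 1 of the 241 (0.415%) to do so. The branch site motif TACTAAC was present in QCR9, QCR10, COX5B and MRA1, and in 200 of the 241 introns (83.0%). RCF3 holds CGCTAAC instead. In COI1 the only match to NNCTAAC, which 230 introns (95.4%) hold, is AACTAAC, and 144 bases follow it. MRA1 has 2 matches, of which the last, TACTAAC, is in capitals, with 10 bases after it. These are matches of letters on the transcribed strand, and do not show which site is used. When the intron is retained, the reading frame that begins at the start codon meets a stop codon within the intron in QCR9, QCR10, RCF3, COI1 and MRA1. COX5B was left out of this count because its start codon is split.

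In wild type, all 7 genes had less unspliced relative to spliced RNA at 48 h than in log phase. Most introns of ribosomal protein genes moved the opposite way, and outside those genes more introns fell than rose. Spliced RNA of all 7 rose, by the most in MRA1, QCR10 and COX4 and by the least in COX5B. Unspliced RNA rose too in 6 of the 7, but less than spliced RNA. With scaling that leaves out ribosomal protein targets, the spliced COX5B and the unspliced RCF3 values turned, as given below. The premature share is the percentage of an intron's counts that were premature, the splicing ratio is premature over mature counts, and CPM is counts scaled to a library total of 1000000. Fitted changes are log2 values with their standard error. The splicing ratio compares RNA levels, and whether its changes came from splicing or from decay of either product was not tested. Adjusted p-values come from edgeR's quasi-likelihood test with Benjamini-Hochberg adjustment over the 265 introns, two-sided, with a threshold of 0.05.

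**Figure D1:**
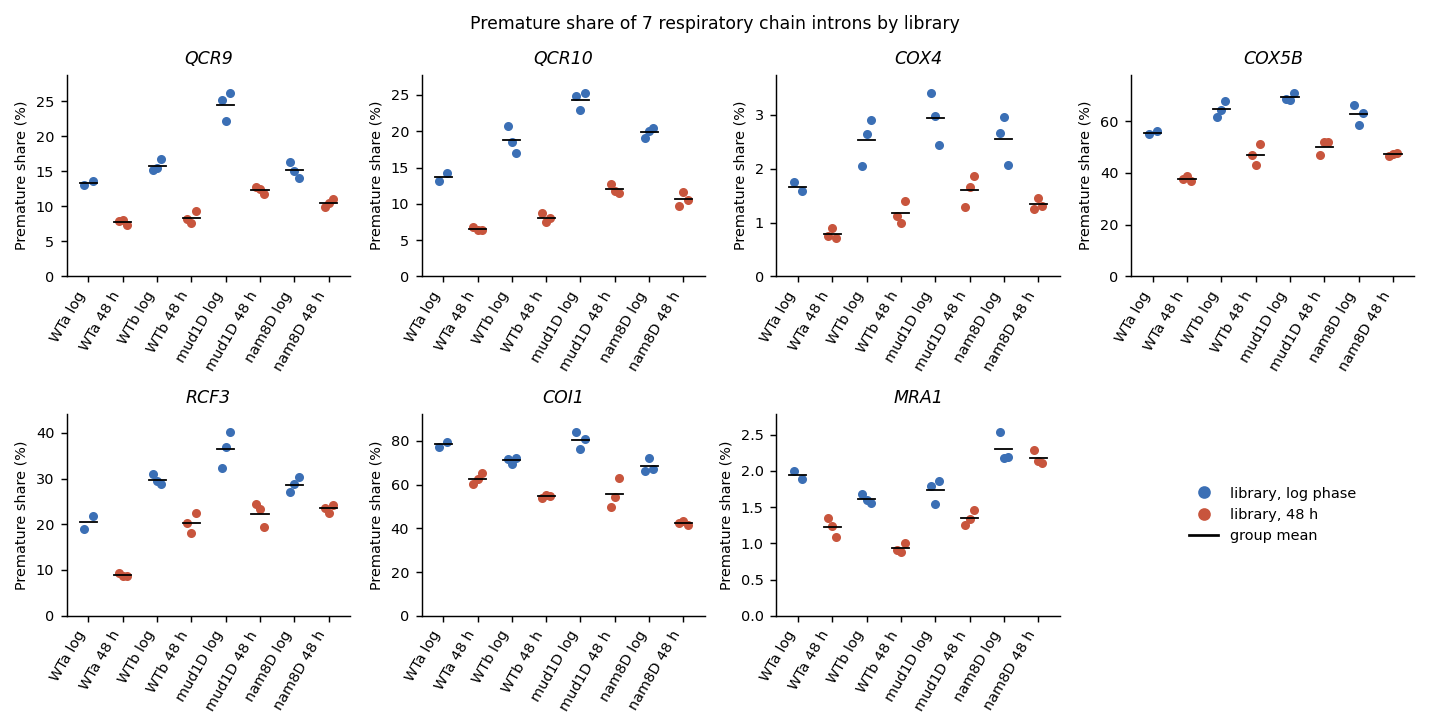
Premature share (%, linear axes from 0, a scale of its own for each gene) of the 7 introns in each of the 23 libraries, by group. Each point is a library and each bar a group mean. QCR9, QCR10, COX4, COX5B and COI1 are lower at 48 h than in log phase in wild type and in both mutants, whereas MRA1 in nam8D is about level.

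QCR9 encodes a small subunit of complex III needed for a fully active complex. Its premature share was 13.1% and 13.6% in log-phase WTa and 15.3%, 15.5% and 16.7% in log-phase WTb. At 48 h it was 7.88%, 8.0% and 7.34% in WTa and 8.15%, 7.68% and 9.34% in WTb. All 6 libraries at 48 h lay below all 5 in log phase. Mature QCR9 went from 699 and 646 CPM to 7984, 7769 and 7621 CPM in WTa, and from 472, 503 and 529 CPM to 6347, 6819 and 5937 CPM in WTb, again with no overlap. The fitted change was 3.35 ± 0.069 for mature and 2.39 ± 0.092 for premature counts. The splicing ratio changed by -0.96 ± 0.086 (edgeR adjusted p = 3.6e-12).

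QCR10, a further small subunit at the outer part of complex III, had a share of 13.1% and 14.2% in log-phase WTa and 20.7%, 18.5% and 17.0% in log-phase WTb. At 48 h the share was 6.82%, 6.42% and 6.40% in WTa and 8.68%, 7.55% and 8.06% in WTb. The 2 sets differed in level in both conditions, and in each the fall was larger than the spread within a set. Mature counts were 966 and 880.1 CPM in WTa and 556, 643 and 702 CPM in WTb in log phase. By 48 h they had reached 16369.9, 18086 and 16677 CPM in WTa and 12844, 14017 and 12998 CPM in WTb. The ratio of group means was 18.5-fold in WTa and 21.0-fold in WTb, for premature counts 8.18-fold and 8.05-fold. The splicing ratio of QCR10 changed by -1.28 ± 0.085 (edgeR adjusted p = 3.2e-15), the largest fall among the 7.

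COX4 encodes a nuclear subunit of complex IV that is needed for its assembly. Nearly all of its RNA was spliced. The premature share was 1.74% and 1.58% in WTa and 2.05%, 2.65% and 2.90% in WTb in log phase. At 48 h it was 0.753%, 0.907% and 0.707% and 1.11%, 0.997% and 1.40%, below every log-phase library. These shares rest on few unspliced reads in log phase, with 151 and 109 premature counts in WTa and 46.0, 66.0 and 71.0 in WTb. Mature COX4 rose 11.7-fold in WTa and 15.6-fold in WTb by group means of CPM. The sets differed in level: log-phase WTa had 705 and 768 CPM and log-phase WTb 312, 336 and 346 CPM. The ratio changed by -1.13 ± 0.13 (edgeR adjusted p = 1.7e-09).

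COX5B encodes the isoform of subunit 5 of complex IV that yeast uses mainly when oxygen is scarce, whereas its paralog COX5A serves in air. More of its RNA was unspliced than of any other member but COI1. The share was 55.2% and 56.1% in log-phase WTa and 61.8%, 64.2% and 67.8% in log-phase WTb, and 37.7%, 38.8% and 36.8% and 47.0%, 43.0% and 51.3% at 48 h. Its level stayed low: mature counts were 61.5 and 57.2 CPM and 44.5, 38.7 and 41.7 CPM in log phase, and 97.2, 93.3 and 94.1 CPM and 103, 119.5 and 101 CPM at 48 h. Mature COX5B rose by 0.77 ± 0.10 in the fit, the smallest rise of the 7. Premature COX5B changed by -0.27 ± 0.089 (edgeR adjusted p = 0.0059), the only decrease of a premature level among the 7. The premature decrease was seen in WTa (-0.57, adjusted p = 0.0002) and not in WTb (0.033, adjusted p = 0.79). With no scaling factors beyond library totals it was -0.011 (adjusted p = 0.91). The splicing ratio fell in both sets and by -1.04 ± 0.11 in the joint value (edgeR adjusted p = 9.5e-11).

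RCF3 encodes an inner membrane protein that associates with supercomplexes of complexes III and IV. The 2 wild-type sets differed most here. In WTa the share went from 19.1% and 21.8% to 9.41%, 8.66% and 8.65%, and in WTb from 31.0%, 29.4% and 28.8% to 20.2%, 18.05% and 22.5%. Within each set the conditions did not overlap, but WTb at 48 h overlapped WTa in log phase. Mature RCF3 rose from 153 and 137 CPM to 698, 802 and 743 CPM in WTa and from 100.3, 109.6 and 129 CPM to 479, 513 and 483 CPM in WTb. Its ratio changed by -1.06 ± 0.10 (edgeR adjusted p = 3.3e-11), as the mean of -1.39 in WTa and -0.74 in WTb.

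COI1 (also called MCO13) is an assembly factor of complex III, complex IV and their supercomplex. Most of its RNA was unspliced in every wild-type library. The share was 77.2% and 79.6% in WTa and 71.9%, 69.5% and 72.0% in WTb in log phase, and 60.1%, 62.5% and 65.5% and 53.9%, 55.2% and 54.9% at 48 h. In log phase WTa had the higher share, as in MRA1, whereas WTb had the higher share in QCR9, QCR10, COX4, COX5B and RCF3. Spliced COI1 was scarce in log phase, at 18.2 and 17.5 CPM and 13.2, 16.2 and 17.9 CPM, and rose to 119, 110.2 and 89.7 CPM and 103, 113 and 105 CPM. Premature COI1 rose as well, 2.74-fold in WTa and 3.32-fold in WTb. The ratio changed by -1.07 ± 0.13 (edgeR adjusted p = 2.1e-09).

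MRA1 (also called MIN8) acts against the assembly of the respiratory complexes, in opposition to Rcf2. Its mature counts rose from 875 and 884 CPM to 22504, 23825 and 22368 CPM in WTa, and from 950.0, 1035 and 1028 CPM to 24936, 27768 and 22068 CPM in WTb. The fitted rise of 4.42 ± 0.12 (edgeR adjusted p = 1.3e-19) was the largest of the 265 introns, and that of QCR10 the fourth. Premature MRA1 rose by 3.67 ± 0.12, to 309, 299.9 and 247 CPM in WTa and 227, 247 and 224 CPM in WTb. The premature share was small throughout, at 2.00% and 1.89% and 1.69%, 1.59% and 1.56% in log phase and 1.35%, 1.24% and 1.09% and 0.904%, 0.880% and 1.01% at 48 h. The ratio changed by -0.74 ± 0.10 (edgeR adjusted p = 1.4e-08), the smallest fall among the 7.

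**Figure D2:**
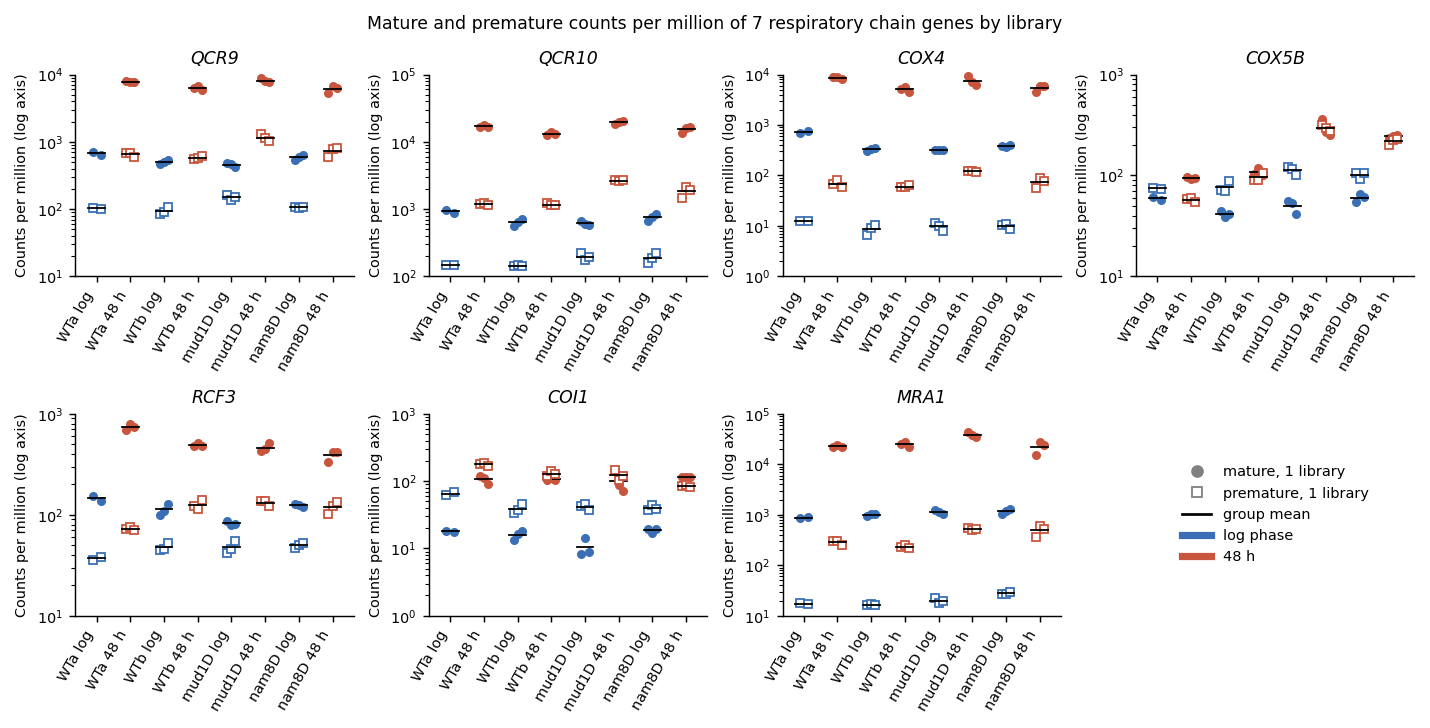
Mature and premature CPM (log axes) of the 7 genes in each library, by group. Filled circles are mature and open squares premature counts. On library totals, mature CPM is higher at 48 h in every gene and genotype, by about an order of magnitude or more in QCR9, QCR10, COX4 and MRA1. With ribosomal protein targets left out of the scaling, the fitted rise in wild type was 4.76-fold in QCR9 and 7.73-fold in QCR10. It was 5.31-fold in COX4 and 9.97-fold in MRA1. In wild type COX5B turns when ribosomal protein targets are left out of the scaling.

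Over the 7 genes, the splicing ratio was lower at 48 h in 7 and higher in 0, with a median change of -1.06. Of all 265 introns, 28.7% were lower and 51.7% higher, and the median was 0.29. The rises were mostly in ribosomal protein genes, where 96 of 104 introns were higher, 1 was lower and the median was 1.06. Outside those genes 75 of 161 introns (46.6%) were lower and 41 (25.5%) higher, with a median of -0.20, so that the 7 moved in the direction of the larger part of these introns. The 7 fell in the WTa set alone and in the WTb set alone, and premature shares of both sets together did not overlap in 6 of the 7, RCF3 being the exception. Of all introns, 11.7% likewise lay lower at 48 h with no overlap, or 19.3% outside ribosomal protein genes. Mature counts were higher in 7 of 7, against 50.6% of all introns higher and 39.6% lower, with a median of 3.35 against 0.16. Outside ribosomal protein genes, mature counts were higher in 78.3% and lower in 11.2%, with a median of 0.97. Premature counts were higher in 6 and lower in 1, against 75.8% higher and 8.3% lower over all introns, with a median of 2.38 against 0.67. These levels are relative to the other primed targets. In bulk samples, more RNA per cell and more cells that express a gene cannot be told apart. Ribosomal protein targets lost share at 48 h, and their part in the levels shows in the scaling. With scaling factors taken from the other targets, the median mature change of all introns moved from 0.16 to -0.94, and 24.5% of them were higher and 69.1% lower. Mature counts of 6 genes were then still higher, by 2.25 in QCR9, 2.95 in QCR10, 2.41 in COX4, 0.90 in RCF3, 1.32 in COI1 and 3.32 in MRA1. COX5B turned to -0.33 (edgeR adjusted p = 0.00057). Premature RCF3 turned from 0.93 to -0.16 (adjusted p = 0.11). The premature background turned with this scaling, to 18.1% of all introns higher and 60.4% lower and a median of -0.42, and of the 7 genes 5 were higher, COX5B was lower at -1.36 and RCF3 did not pass. The splicing ratio is taken within a library and needs no such scaling.

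In mud1D the 7 genes also had lower splicing ratios at 48 h than in log phase, and in nam8D 6 of them did. In mud1D 7 were lower, against 15.5% of all introns lower and 64.9% higher, and the median change was -1.16 against 1.08 over all introns. In nam8D 6 were lower, against 9.81% of all introns lower and 70.9% higher, with a median of -0.92 against 1.103. Outside ribosomal protein genes, 24.8% of the introns were lower and 45.3% higher in mud1D (median 0.27), and 14.9% and 54.0% in nam8D (median 0.46). Changes in mud1D were -1.20 ± 0.11 for QCR9, -1.24 ± 0.11 for QCR10, -0.91 ± 0.18 for COX4, -1.16 ± 0.14 for COX5B and -1.003 ± 0.14 for RCF3. COI1 in mud1D changed by -1.70 ± 0.19 (edgeR adjusted p = 3.7e-10), the fourth lowest of the 265 introns. MRA1 changed least, by -0.36 ± 0.13 (edgeR adjusted p = 0.0093). The other 6 changes in mud1D had adjusted p-values of at most 2e-05.

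In nam8D the ratio changed by -0.62 ± 0.11 for QCR9, -1.06 ± 0.11 for QCR10, -0.94 ± 0.18 for COX4 and -0.92 ± 0.14 for COX5B. RCF3 changed by -0.39 ± 0.14 (edgeR adjusted p = 0.011), a call that was lost without log-phase nam8D replicate 3 (-0.33, adjusted p = 0.054). COI1 changed by -1.57 ± 0.17 (edgeR adjusted p = 5e-10), the third lowest of all introns. MRA1 was the exception, at -0.077 ± 0.12 (edgeR adjusted p = 0.58). Its share in nam8D was 2.54%, 2.18% and 2.19% in log phase and 2.29%, 2.14% and 2.12% at 48 h, and the conditions overlapped. After subtracting the median intron of each library (centred libraries), MRA1 in nam8D fell by 1.19 (limma adjusted p = 2.5e-09). All 7 were lower in each of the 3 genotypes in that limma fit. Of all introns, 38.9% were lower in wild type, 36.6% in mud1D and 40.4% in nam8D. Centring takes the same value from every intron of a library. Uncentred, the median change in nam8D was 1.97 in ribosomal protein introns and 0.46 outside them, so the shift was not common to all introns.

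Mature counts of all 7 rose in both mutants, against 46.8% of all introns higher and 44.5% lower in mud1D and 43% and 44.2% in nam8D. Outside ribosomal protein genes 72.0% were higher and 19.3% lower in mud1D, and 64.6% and 25.5% in nam8D. MRA1 rose by 4.80 ± 0.16 in mud1D and 4.01 ± 0.15 in nam8D, QCR10 by 4.70 ± 0.11 and 4.09 ± 0.10, and COX4 by 4.26 ± 0.13 and 3.60 ± 0.13. QCR9 rose by 3.86 ± 0.09 and 3.13 ± 0.087, and COI1 by 2.99 ± 0.22 and 2.38 ± 0.20. The smallest rises in mud1D and nam8D were 2.19 ± 0.11 and 1.41 ± 0.10 for RCF3 and 2.26 ± 0.13 and 1.78 ± 0.12 for COX5B. Premature counts of all 7 rose as well, against 88.3% of all introns higher and 4.15% lower in mud1D and 89.1% and 3.02% in nam8D. The premature rises ran from 1.09 (COX5B) to 4.44 (MRA1) in mud1D and from 0.81 (COI1) to 3.92 (MRA1) in nam8D. With scaling factors from targets outside ribosomal protein genes, the mature rises passed in all 7 in both mutants, and the premature rises passed in QCR9, QCR10, COX4 and MRA1 but not in COX5B, RCF3 or COI1. With that scaling, mature counts were higher in 26.8% of all introns and lower in 65.3% in mud1D, and 26.4% and 64.9% in nam8D. Premature counts were higher in 47.9% and lower in 20.4% in mud1D, and 64.5% and 13.6% in nam8D.

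**Figure D3:**
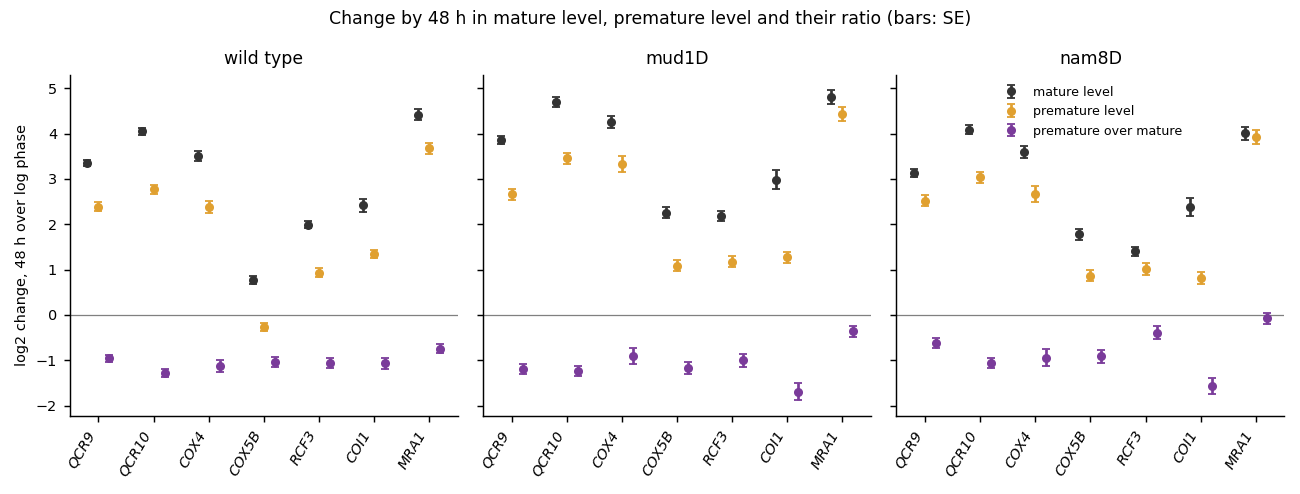
Fitted log2 change from log phase to 48 h (y axis) of mature counts, premature counts and their ratio for the 7 genes (x axis) in wild type, mud1D and nam8D. Points are fitted values and bars their SE. Mature counts are above 0 in every case, from 0.77 in COX5B of wild type, which turns to -0.33 when ribosomal protein targets are left out of the scaling, up to 4.80 in MRA1 of mud1D. The ratio is below 0 in every case, closest to 0 for MRA1 in nam8D.

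The mutants were compared with wild type within each condition, which asks how splicing ratios and RNA levels differ in each mutant. Whether a difference in ratio came from splicing or from decay of either product was not tested. Both mutants are set against the same wild-type libraries, so their values are given side by side and are not independent of each other. In places the mutant libraries lay wholly above or below wild type in premature share or CPM. The share of all introns that did so was not counted, so this is not read as particular to these genes. In log phase, mud1D had higher splicing ratios in 6 of the 7 genes, MRA1 apart, and nam8D in QCR10 and MRA1 alone, while COI1 was lower in nam8D. At 48 h both mutants had higher ratios in 6 of the 7, as did most introns, and COI1 was the exception.

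QCR9 in log-phase mud1D had shares of 25.2%, 22.2% and 26.2%, all above wild type, and QCR10 had 24.9%, 22.9% and 25.3%, likewise all above. The ratio of mud1D over wild type was 0.93 ± 0.10 for QCR9 (edgeR adjusted p = 3.8e-09) and 0.76 ± 0.10 for QCR10 (adjusted p = 2.3e-07). RCF3 was higher by 0.81 ± 0.13 (adjusted p = 3.4e-06), with shares of 32.4%, 36.9% and 40.1% that lay above all wild-type libraries. COX5B, with shares of 68.7%, 68.3% and 71.0%, was higher by 0.58 ± 0.13. COX4 was higher by 0.53 ± 0.18 (adjusted p = 0.012) and COI1 by 0.43 ± 0.18 (adjusted p = 0.041), and both overlapped wild type in premature share. MRA1 had shares of 1.79%, 1.54% and 1.87% and a difference of -0.037 ± 0.12 (adjusted p = 0.82).

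The 6 higher genes in log-phase mud1D stand against 47.9% of all introns higher and 7.92% lower, with medians of 0.58 in the 7 and 0.31 over all. Outside ribosomal protein genes 63.4% were higher and 4.97% lower, with a median of 0.51, near that of the 7. With libraries centred, 3 of the 7 were higher (QCR9, QCR10 and RCF3), against 21.5% of all introns. MRA1 was lower (35.5% of all), at -0.45 (limma adjusted p = 0.00054). Some calls rested on 1 wild-type set. Against WTb alone, COX4 was at 0.22 (adjusted p = 0.43) and COX5B at 0.31 (adjusted p = 0.11). Against WTa alone, COI1 was at 0.16 (adjusted p = 0.53), and its call was also lost without log-phase WTa replicate 2, WTb replicate 2, or mud1D replicate 1 or 3. COX4 lost its call without mud1D replicate 1 (0.41, adjusted p = 0.091).

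In log-phase nam8D, QCR10 had shares of 19.0%, 20.1% and 20.4% and was higher than wild type by 0.38 ± 0.10 (edgeR adjusted p = 0.0039). The shares overlapped WTb and lay above WTa. MRA1, with shares above every wild-type library, was higher by 0.38 ± 0.12 (adjusted p = 0.012). COI1, at 66.2%, 72.1% and 67.1%, differed by -0.46 ± 0.17 (adjusted p = 0.031). Of all introns, 29.4% were higher and 7.17% lower. QCR9 (0.074), COX4 (0.31), COX5B (0.15) and RCF3 (0.29) did not pass. Against WTa alone, COX4 passed at 0.62 (adjusted p = 0.012), COX5B at 0.43 (adjusted p = 0.021) and RCF3 at 0.65 (adjusted p = 0.00077). All 3 calls likewise depended on the wild-type set: QCR10 was at 0.11 (adjusted p = 0.59) and COI1 at -0.18 (adjusted p = 0.58) against WTb alone, and MRA1 at 0.24 (adjusted p = 0.16) against WTa alone. The COI1 call was also lost without WTa replicate 3, WTb replicate 3, or nam8D replicate 1 or 3, and that of MRA1 without nam8D replicate 1.

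At 48 h, QCR9 shares were 12.8%, 12.5% and 11.8% in mud1D and 9.87%, 10.4% and 11.1% in nam8D, all above wild type. For QCR10 they were 12.8%, 11.8% and 11.5% in mud1D and 9.75%, 11.6% and 10.5% in nam8D, again above all wild-type libraries. The ratio over wild type was 0.69 ± 0.10 and 0.42 ± 0.10 for QCR9 and 0.80 ± 0.10 and 0.60 ± 0.10 for QCR10. COX4 had shares of 1.29%, 1.66% and 1.87% in mud1D and 1.25%, 1.46% and 1.31% in nam8D, which overlapped WTb, and differences of 0.74 ± 0.13 and 0.50 ± 0.13. Against WTb alone, COX4 in nam8D was at 0.22 (edgeR adjusted p = 0.19). RCF3 differed by 0.87 ± 0.12 and 0.96 ± 0.12, but its shares of 24.4%, 23.4% and 19.3% in mud1D and 23.6%, 22.5% and 24.3% in nam8D were far above WTa and overlapped WTb. Against WTb alone, RCF3 was at 0.18 (edgeR adjusted p = 0.21) in mud1D and 0.28 (adjusted p = 0.059) in nam8D.

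COI1 went the other way. Its shares at 48 h were 42.3%, 43.2% and 41.4% in nam8D, below every wild-type library, and 49.6%, 54.2% and 63.1% in mud1D, which overlapped wild type. In nam8D the ratio differed by -0.96 ± 0.14 (edgeR adjusted p = 7.1e-08), the lowest of the 265 introns, of which 1.13% were lower. In mud1D it was -0.20 ± 0.14 (adjusted p = 0.17), and it passed without mud1D replicate 3 at 48 h (-0.41, adjusted p = 0.0074) and against WTa alone (-0.44, adjusted p = 0.0094). Mature COI1 in nam8D was 114, 116 and 114 CPM, which overlapped wild type (0.10 ± 0.15, adjusted p = 0.57). Premature COI1 in nam8D was 83.7, 88.0 and 80.5 CPM, below every wild-type library (-0.85 ± 0.11, adjusted p = 7.7e-09). The lower ratio therefore came with fewer unspliced counts, while the test found no difference in spliced counts. In mud1D premature COI1 was 146, 104 and 121 CPM, a difference of -0.33 ± 0.11 (adjusted p = 0.0062), which was at -0.087 (adjusted p = 0.53) against WTb alone and lost its call without mud1D replicate 2.

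MRA1 was higher in both mutants at 48 h. In nam8D at 48 h its shares were all above the highest wild-type share of 1.35%, and the ratio was higher by 1.05 ± 0.10 (edgeR adjusted p = 9.8e-12). Premature MRA1 was 365, 597 and 526 CPM in nam8D, above all wild-type libraries, and mature MRA1 was 15593, 27267 and 24350.0 CPM, which overlapped them. In mud1D the shares were 1.26%, 1.34% and 1.46%, which overlapped WTa, and the ratio was higher by 0.35 ± 0.10 (adjusted p = 0.0014), or 0.14 (adjusted p = 0.21) against WTa alone. Mature MRA1 in mud1D was 43677, 37603 and 35554 CPM, above all wild-type libraries (0.67 ± 0.11, adjusted p = 1.3e-05). The direct difference between the mutants was not tested.

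The 6 genes higher at 48 h in mud1D stand against 90.6% of all introns, and the 6 in nam8D against 88.3%. The medians were 0.69 in the 7 and 1.11 over all introns in mud1D, and 0.50 and 1.01 in nam8D. With libraries centred, 0 of the 7 were higher in either mutant, against 44.5% of all introns in mud1D and 38.5% in nam8D. In mud1D 4 were lower (QCR9, COX5B, COI1 and MRA1), against 22.3% of all introns in that limma fit. In nam8D 5 were lower (QCR9, QCR10, COX4, COX5B and COI1), against 29.8%. COI1 was at -1.86 in nam8D (limma adjusted p = 1.1e-08) and -1.08 in mud1D (adjusted p = 1.2e-05). MRA1 was at 0.15 in nam8D (adjusted p = 0.16) and -0.56 in mud1D (adjusted p = 2.7e-05).

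**Figure D4:**
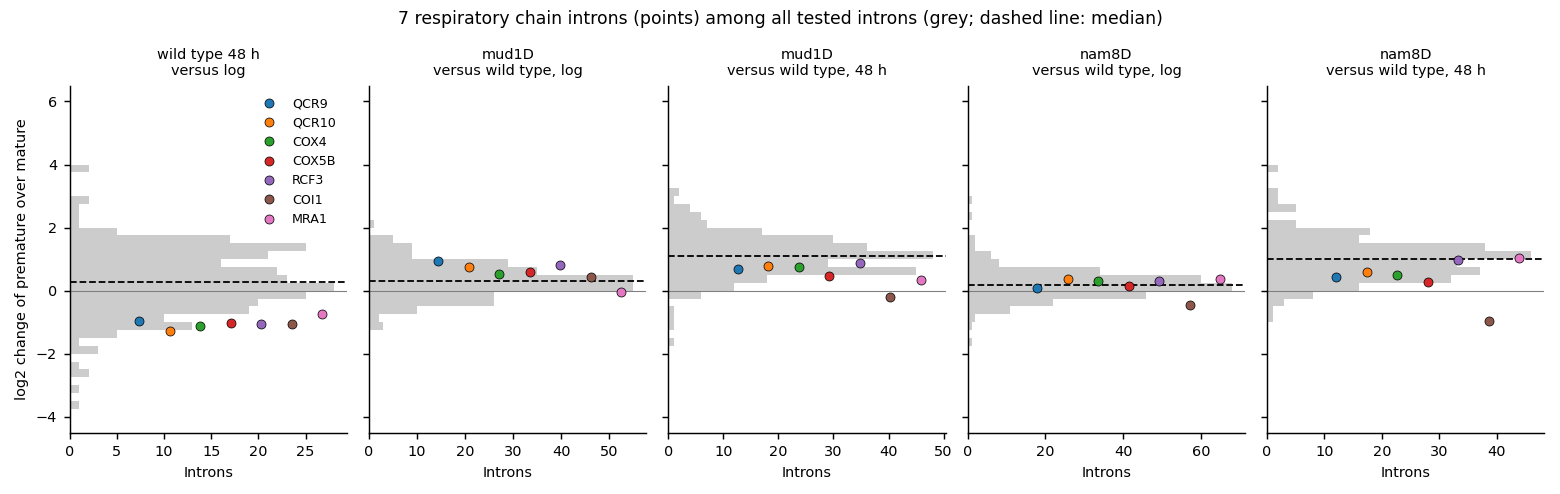
Fitted log2 change of premature over mature counts (y axis) for all 265 tested introns in grey, with the 7 genes as coloured points and the median of all introns as a dashed line. Panels are 48 h over log phase in wild type, and each mutant over wild type in log phase and at 48 h. In wild type at 48 h over log phase the 7 lie below the median, and in the comparison of nam8D with wild type at 48 h COI1 is the lowest intron.

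COX5B stood apart in level. At 48 h its mature counts were 361, 272 and 251 CPM in mud1D and 233, 249 and 253 CPM in nam8D, against 93.3 to 119.5 CPM in wild type, with no overlap. Mature COX5B was higher by 1.51 ± 0.10 in mud1D (edgeR adjusted p = 1.1e-11) and 1.27 ± 0.10 in nam8D (adjusted p = 1.8e-10), the fourth and the sixth highest of the 265 introns. Its premature counts were 317, 292 and 273 CPM in mud1D and 202, 223 and 232 CPM in nam8D, against 54.8 to 107 CPM in wild type. They were higher by 1.96 ± 0.10 and 1.56 ± 0.10. As both products rose, the ratio moved little: it was higher by 0.45 ± 0.12 in mud1D (adjusted p = 0.00061) and 0.28 ± 0.12 in nam8D (adjusted p = 0.026). Neither ratio call passed against WTb alone, where the values were 0.18 (adjusted p = 0.22) and 0.0035 (adjusted p = 0.98). The nam8D call was also lost without WTb replicate 2 or nam8D replicate 2 or 3 at 48 h. In log phase mature COX5B was at 0.028 in mud1D and 0.27 in nam8D, and neither passed, although nam8D was at 0.48 (adjusted p = 0.028) against WTb alone.

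Mature counts of the other genes differed less between genotypes. At 48 h in mud1D 4 of the 7 were higher and 1 lower, against 26.8% higher and 52.5% lower over all introns. In nam8D 1 was higher and 3 lower, against 25.3% and 49.1%. RCF3 was lower in both, at -0.42 ± 0.087 in mud1D (edgeR adjusted p = 0.00014) and -0.64 ± 0.088 in nam8D (adjusted p = 7.8e-07), although mud1D was at -0.11 (adjusted p = 0.31) against WTb alone. QCR10 was higher in mud1D by 0.34 ± 0.077, and QCR9 by 0.18 ± 0.069, and against WTa alone both were lost (0.15, adjusted p = 0.13, and 0.025, adjusted p = 0.78). The QCR9 call was also lost without mud1D replicate 1 or 2. In nam8D QCR9 differed by -0.20 ± 0.07 and COX4 by -0.30 ± 0.10. Both calls were lost without nam8D replicate 1, at -0.083 and -0.14, and with scaling factors from targets outside ribosomal protein genes, at -0.037 and -0.14. Against WTb alone QCR9 in nam8D was at -0.047 and COX4 at 0.081. COX4 in mud1D at 48 h did not pass (0.15), but was at 0.53 (adjusted p = 0.00035) against WTb alone. COI1 in mud1D at 48 h did not pass either (-0.095), and was at -0.45 (adjusted p = 0.006) without mud1D replicate 1. In log phase, mature counts were lower in mud1D in QCR9, QCR10, COX4, RCF3 and COI1, 5 of 7 against 25.7% of all introns lower and 19.6% higher. Against WTb alone RCF3 was the single one of the 5 that passed, with QCR9 at -0.15 (adjusted p = 0.22), QCR10 at -0.075, COX4 at -0.063 and COI1 at -0.61 (adjusted p = 0.096). The COI1 call was also lost without mud1D replicate 1 or 3. In log-phase nam8D 1 was higher (MRA1, 0.32, lost without any of 7 libraries in turn and with 3 of the other scalings and tools, and at 0.18 against WTb alone) and 1 lower (COX4, -0.39, at 0.15 against WTb alone), against 18.9% and 18.1%. Mature values that did not pass but did so under an alternative were MRA1 in log-phase mud1D (0.42 against WTa alone, adjusted p = 0.022), QCR10 in log-phase nam8D (-0.25 against WTa alone, adjusted p = 0.042) and QCR10 in nam8D at 48 h (0.21 against WTb alone, adjusted p = 0.042). With scaling factors from targets outside ribosomal protein genes, RCF3 in log-phase nam8D passed at -0.22 (adjusted p = 0.048) and QCR10 in nam8D at 48 h at 0.19 (adjusted p = 0.041).

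Premature counts at 48 h were higher in 6 of the 7 in mud1D and 5 in nam8D, with COI1 lower in both, against 89.1% and 81.5% of all introns higher and 1.89% and 3.4% lower. In log phase 3 were higher in mud1D (QCR9, QCR10 and COX5B) and 3 in nam8D (QCR10, COX5B and MRA1), with COI1 lower in nam8D, against 46.4% and 35.1% higher and 7.55% and 6.42% lower. Against WTb alone, premature RCF3 at 48 h was at 0.064 (adjusted p = 0.63) in mud1D and -0.058 (adjusted p = 0.68) in nam8D, and COI1 in log-phase nam8D at 0.0089 (adjusted p = 0.98). In nam8D at 48 h the QCR9 call was lost without WTa replicate 3, WTb replicate 1 or nam8D replicate 2 or 3 and against WTa alone (0.13, adjusted p = 0.28), and that of RCF3 without nam8D replicate 3. In log phase the nam8D call of QCR10 was lost without nam8D replicate 3. With scaling factors from targets outside ribosomal protein genes, those of QCR10 (0.20, adjusted p = 0.13) and COX5B (0.25, adjusted p = 0.051) were lost. That of COI1 was lost without WTa replicate 3, WTb replicate 3, or nam8D replicate 1 or 3. In log-phase mud1D, COI1 (-0.25) and RCF3 (0.20) did not pass, but against WTa alone they were at -0.58 (adjusted p = 0.00054) and 0.41 (adjusted p = 0.012), and COI1 passed with DESeq2 too (-0.27, adjusted p = 0.037). Against WTa alone, RCF3 in log-phase nam8D passed at 0.46 (adjusted p = 0.0069). COX4 in nam8D at 48 h did not pass (0.21), and passed without nam8D replicate 1 (0.41, adjusted p = 0.0029) and with scaling factors from targets outside ribosomal protein genes (0.37, adjusted p = 0.0079).

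Whether the change by 48 h itself differed between a mutant and wild type was tested as an interaction. In mud1D, MRA1 differed by 0.38 ± 0.16 (edgeR adjusted p = 0.03) and COI1 by -0.63 ± 0.23 (adjusted p = 0.015), and the other 5 did not pass. Over all introns 65.3% were higher and 4.91% lower. In nam8D, RCF3 differed by 0.67 ± 0.17 (adjusted p = 0.00093), MRA1 by 0.67 ± 0.15 (adjusted p = 0.0003), QCR9 by 0.34 ± 0.14 (adjusted p = 0.028) and COI1 by -0.50 ± 0.22 (adjusted p = 0.034), against 75.8% of all introns higher and 3.02% lower. The medians over all introns were 0.72 in mud1D and 0.81 in nam8D, above those of the 7 genes (0.043 and 0.22). With libraries centred, 0 of the 7 were higher and 5 were lower in each mutant, against 18.1% of all introns lower in mud1D and 23% in nam8D. The calls of RCF3 and MRA1 in nam8D held without each library in turn, and the other 4 did not.

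A further 12 introns of genes for other mitochondrial proteins, such as a mitochondrial ribosomal protein and a protein import factor, were counted beside the 7. In wild type 9 of the 12 had a lower splicing ratio at 48 h and 0 a higher one, with a median of -0.67. Of all introns 28.7% were lower and 51.7% higher, and outside ribosomal protein genes 46.6% and 25.5%. In mud1D 6 of the 12 were lower and 3 higher, and in nam8D 4 were lower and 5 higher, where 0 of the 7 respiratory chain genes were higher. Of all introns 15.5% were lower and 64.9% higher in mud1D, and 9.81% and 70.9% in nam8D. Outside ribosomal protein genes 24.8% were lower and 45.3% higher in mud1D, and 14.9% and 54.0% in nam8D. Mature counts of the 12 rose in all 12 in wild type (median 2.03), in 10 in mud1D and in 10 in nam8D. Of all introns 50.6%, 46.8% and 43% rose in wild type, mud1D and nam8D, and outside ribosomal protein genes 78.3%, 72.0% and 64.6%. Against wild type at 48 h, 8 of the 12 were lower in mature counts in mud1D and 9 in nam8D, and 9 and 10 were higher in splicing ratio. Of all introns, 52.5% and 49.1% were lower in mature counts, and 90.6% and 88.3% were higher in splicing ratio. Outside ribosomal protein genes 50.9% and 59.6% were lower in mature counts, and 90.1% and 88.2% higher in splicing ratio.

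The pattern of the splicing ratio over the 8 group means was described by Pearson's correlation of log2 ratios, with no test, since the groups share the contrast between log phase and 48 h. The nearest introns were QCR10 and the second intron of HMRA1 for QCR9 (0.966 and 0.966), COX4 and HPC2 for QCR10 (0.989 and 0.984), and HPC2 and QCR10 for COX4 (0.997 and 0.989). COX5B was nearest to COX4 and QCR10 (0.984 and 0.981). RCF3 was nearest to ARP2 and YBR062C (0.957 and 0.945), MRA1 to PCH2 and MPT5 (0.928 and 0.832), and COI1 to SIM1 and RPS14B (0.816 and 0.800). COX4 was thus nearer to HPC2 than to any of the 7, and QCR9 was about as near to the HMRA1 intron as to QCR10. RCF3, COI1 and MRA1 had none of the 7 among their nearest. How many of all introns correlate this closely was not counted, so no trait of the 7 is read from these values.

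Many respiratory genes of yeast carry CCAAT, the sequence bound by the Hap2, Hap3, Hap4 and Hap5 complex that activates respiration. CCAAT was sought on both strands in the 300 bases before each start codon. It was found in 5 of the 7 genes, against 2510 of 6007 coding genes (41.8%) and 105 of the 257 tested genes with such a window (40.9%). The match is shown in capitals in R64 for the 3 genes with it farthest upstream and 1 match.
QCR9: tatacacgacCCAATcaaacgcggg
QCR10: tgattttgatCCAATtaaaactaaa
MRA1: gcagtatgggCCAATcatatcgtac
The matches begin 207 bases before the start codon in QCR9, 199 in QCR10 and 203 in MRA1. COX5B had matches at 247 and 72 bases and RCF3 at 62. No match was found in this window for COX4 and COI1, and a match or its lack says nothing of binding. The position of the COX4 intron was not used, so whether the COX4 window holds that intron rather than promoter sequence was not checked.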

How the data were processed

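RNA of 23 libraries was measured by multiplexed primer extension sequencing. The tables deposited by the authors hold mature and premature read counts per intron and library, which are whole numbers with no normalization per the file headers. Genome build R64 and the tools STAR 2.7.2b, fastp 0.20.0 and FastQC are named per the submitters' processing notes, without roles. The sources used here do not give the read assignment or any molecular identifiers, so errors cover counting and the spread between libraries within a group. Replicates differed by a chi-square of at least 11.7 per degree of freedom, so none was a duplicate within its group. The labels call the mutant mud1D while its table rows carry another suffix. Strain names differ within sets and were not used.

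The 265 introns listed in all libraries with a mean of at least 20 counts were fitted together, with all 23 libraries in 8 groups, in edgeR 4.0.16 (R 4.3.3). For the splicing ratio, premature and mature counts were separate columns, and terms for libraries and for groups were fitted. Mature and premature levels used TMM factors from all targets. Wild type is the mean of WTa and WTb. CPM values use library totals. Alternatives were DESeq2 1.42.0, limma 3.58.1 on log2 odds (pseudocount 0.5), libraries centred on the median intron, mean count minimums of 100 or none, RLE factors, library totals, TMM without ribosomal protein targets, a replicate block, each wild-type set alone, and each library left out. Fits were also run on simulated counts in which a minority of introns changed and the wild-type sets did not differ. That run therefore does not show how the fits behave when most introns change or the sets differ, as here. All 7 members were named in every comparison, and for each the 2 introns with the most similar ratio. The members and the list of 12 other mitochondrial genes were chosen with earlier results of these data known. Python 3.11.15, numpy 2.4.6, pandas 2.3.3 and matplotlib 3.10.9 were used for tables, sequences and figures.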

Additional observations from a re-analysis of the deposited data

Results flagged for a closer look

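In 6 cases the change of the splicing ratio from log phase to 48 h differed between a mutant and wild type in the edgeR interaction test, and these are set out because an effect differed between groups. Each value is the log2 change in the mutant minus that in wild type. In mud1D, COI1 was at -0.63, the seventh lowest of the 265 introns, and its fall in mud1D (-1.70) was larger than in wild type (-1.07). The COI1 call was lost without log-phase or 48 h mud1D replicate 1. MRA1 was at 0.38 in mud1D, where it fell less (-0.36) than in wild type (-0.74). This call was lost without WTa replicate 2 in log phase, WTa replicate 3 at 48 h, mud1D replicate 2 in log phase or mud1D replicate 3 at 48 h, and against WTa alone (0.32, adjusted p = 0.13).

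In nam8D, RCF3 and MRA1 were each at 0.67. The RCF3 value was 0.35 (adjusted p = 0.12) against WTb alone. QCR9 was at 0.34, and was lost without log-phase WTa replicate 3, nam8D replicate 2 or 3, or nam8D replicate 3 at 48 h, and against WTa alone (0.26, adjusted p = 0.15). COI1 was at -0.50. It was lost without WTa replicate 2, WTb replicate 2 or nam8D replicate 2 in log phase, without WTa replicate 3 or nam8D replicate 3 at 48 h, against either wild-type set alone, and with DESeq2 (-0.50, adjusted p = 0.05). The median interaction over all introns was 0.72 in mud1D and 0.81 in nam8D. With libraries centred on their median intron, COI1 was at -1.13 in mud1D (limma adjusted p = 0.00049) and -1.33 in nam8D (adjusted p = 0.00016), and QCR9 in nam8D at -0.49 (adjusted p = 0.0041). MRA1 was then at -0.11 in mud1D (adjusted p = 0.51) and -0.16 in nam8D (adjusted p = 0.35), and RCF3 in nam8D at -0.15 (adjusted p = 0.43), so that these 3 did not pass as different from the median intron. Both COI1 values lay below 0 on either scale.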

How the results depend on the processing

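Of 2639 values of the 7 genes under alternatives, 2434 kept their direction and their side of the threshold, 102 lost the call, 30 gained it and 73 changed sign, 21 of these among values that had passed. Centring libraries changed the sign of 20 ratio values. In mud1D over wild type at 48 h these were QCR9 (-0.21), QCR10 (-0.10), COX4 (-0.16), COX5B (-0.45), RCF3 (-0.036) and MRA1 (-0.56), and in nam8D QCR9 (-0.48), QCR10 (-0.30), COX4 (-0.40) and COX5B (-0.62). For the change in mud1D minus that in wild type they were QCR10 (-0.45), COX4 (-0.27), RCF3 (-0.42) and MRA1 (-0.11), and in nam8D QCR9 (-0.49), QCR10 (-0.61), COX4 (-0.65), COX5B (-0.70), RCF3 (-0.15) and MRA1 (-0.16). With WTb alone as wild type, ratio values turned in MRA1 of log-phase mud1D (0.10), COI1 of mud1D at 48 h (0.041), QCR9 (-0.069), COX5B (-0.12) and RCF3 (-0.072) of log-phase nam8D, and the RCF3 change in mud1D minus wild type (-0.26). Mature values turned in COX4 (0.15), QCR10 (0.22) and RCF3 (0.088) of log-phase nam8D and COX4 of nam8D at 48 h (0.081). Premature values turned in COX5B of wild type (0.033), COX4 (0.15), RCF3 (-0.022) and COI1 (0.080) of log-phase mud1D, COX4 (0.15) and COI1 (0.0089) of log-phase nam8D, and RCF3 of nam8D at 48 h (-0.058). With WTa alone the QCR10 ratio change in mud1D minus wild type was -0.064, and mature values turned in COX5B of log-phase mud1D (-0.19), COX4 of mud1D at 48 h (-0.23), QCR9 of log-phase nam8D (-0.15) and QCR10 of nam8D at 48 h (-0.17). Scaling without ribosomal protein targets turned mature COX5B of wild type (-0.33) and of log-phase mud1D (-0.098), mature QCR9 (-0.15) and COI1 (-0.036) of log-phase nam8D, mature MRA1 of nam8D at 48 h (0.065), premature RCF3 of wild type (-0.16) and premature QCR9 of log-phase nam8D (-0.080). Mature QCR9 of log-phase nam8D was -0.023 with DESeq2 and -0.023 with RLE factors.

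Leaving out 1 library turned 12 values that had not passed. For the ratio these were MRA1 in log-phase mud1D (-0.094 to 0.046) and the changes in mud1D minus wild type of QCR10 (-0.015 to 0.085) and RCF3 (-0.064 to 0.19). Mature values were COX5B in log-phase mud1D (-0.041 to 0.14), COX4 (-0.022 to 0.28) and COI1 (-0.45 to 0.11) in mud1D at 48 h, QCR9 (-0.048 to 0.059) and QCR10 (-0.11 to 0.041) in log-phase nam8D, and QCR10 (-0.010 to 0.15) and MRA1 (-0.24 to 0.14) in nam8D at 48 h. Premature values were COX4 in log-phase mud1D (-0.19 to 0.042) and nam8D (-0.18 to 0.023).

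Counts over all 265 introns moved by more than 1.5 times against WTb alone in log phase: splicing ratio 84 in mud1D and 33 in nam8D (148 and 97 with both sets), mature counts 33 and 24 (120 and 98) and premature counts 89 and 50 (143 and 110). Premature counts in log-phase nam8D ran from 66 (without replicate 3) to 105 with a library left out. Centred, the nam8D interaction called 110 (49 higher and 61 lower) in place of 209. Why these moved was not tested. Either set alone leaves fewer wild-type libraries, WTa with the fewest in log phase. WTa was also the set farther from the mutants in premature counts over all targets. These were 1.60% and 1.62% in log-phase WTa, against 1.86% to 2.35% in the other log-phase libraries. At 48 h they were 3.54% to 3.74% in WTa, against 4.93% to 9.39% in the others. Log-phase WTa had the largest totals, at 12068685 and 8850455 counts. No count moved by more than 1.5 times against WTa alone.

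Replicate numbers were not shown to pair samples: deviations of same-numbered libraries correlated between -0.26 and 0.23. With the replicate block, calls went from 213 to 217 in wild type for the ratio, from 97 to 109 in log-phase nam8D, and of the 7 genes mature MRA1 in log-phase mud1D passed with the block (0.31, adjusted p = 0.041), which changed no other call and turned mature QCR10 of log-phase nam8D (0.0047).

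The depth limits COX4, with 46 to 151 premature counts in a wild-type log-phase library, and spliced COI1, with 57 to 220 mature counts in a log-phase library.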
